A study of Mus musculus with 4 samples.

Results

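The mRNAs of 10 activity-induced immediate early genes (Arc, Fos, Fosb, Junb, Jun, Egr1, Egr2, Egr3, Nr4a1 and Npas4) were followed in an RNA immunoprecipitation (RIP) microarray experiment with an antibody against CPEB2, an RNA-binding protein of the cytoplasmic polyadenylation element-binding family that acts on translation. The members were all probes, other than control spots, that carried one of these symbols in all 4 array files. All 10 genes were found among 24185 named genes, each by 1 probe of 60 bases. Every group came from C57BL/6 males, 8 weeks old, with no drug, transgene or stimulus named in the labels. Cortical and hippocampal lysate was divided and put on beads carrying CPEB2 IgG or control IgG for 3 h, and the RNA left on the beads was labelled with Cy3 and hybridised. Each antibody had 2 arrays, 1 from each of 2 experiments. The titles, the protocol and the series design name CPEB2, whereas a description field of the CPEB2 IgG samples names CPEB3. The number of mice behind each lysate was not given in the sources used here, so the spread between arrays may be partly technical. All 4 arrays shared 1 slide, and each antibody had its own positions on it, so position and antibody cannot be told apart.

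Immediate early genes are switched on within minutes of synaptic activity from transcription factors that are already present, without new protein synthesis. Most of them encode transcription factors themselves: Fos and Jun proteins pair as AP-1, Egr proteins are zinc-finger factors, Nr4a1 is an orphan nuclear receptor, and Npas4 is a basic helix-loop-helix PAS factor that answers calcium entry in neurons. Arc differs in that its protein acts at the synapse, where it promotes AMPA receptor endocytosis, and its mRNA travels into dendrites. Their mRNAs are short-lived, and in adult forebrain the level of many of them rises with experience. CPEB proteins bind a short uridine-rich element, the CPE, in the 3′ untranslated region of target mRNAs.

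The probe decides what an array reports, so 30-base stretches of 5 of the 10 probes are printed here: those of the 3 genes furthest up and the 2 genes that went down with CPEB2 IgG. Each is given 5′ to 3′ as on the array, and capitals mark AATAAA, the poly(A) signal. The stretch of Npas4 was placed around that motif, and the others are the central 30 bases of the probe.
Npas4: agccaactttatAATAAAgtccagtttgcc
Egr2: gttattagctcttaatagttgtggagagag
Fosb: tcattgactccatagccctcacccaggctg
Jun: ttgcaaacgttttgagaacagactgtcagg
Junb: gttttgtcaaagccctggacgacctgcaca
In the mouse build that the array files name (mm9), the whole probes lie at chr19:4984356-4984415 (minus strand) for Npas4, chr10:67004798-67004857 (plus) for Egr2, chr7:19888168-19888227 (minus) for Fosb, chr4:94716928-94716987 (minus) for Jun and chr8:87501881-87501940 (minus) for Junb. Whether a probe sits in coding sequence or in an untranslated region was not analysed here. None of the 10 probes held the CPE, searched as TTTTAT or TTTTAAT on both strands, and 10.7% of all 55681 probes did. AATAAA was in the probe of Npas4 on the printed strand, as in 10.1% of probes. On the other strand it was in the probe of Fos, as in 3.74% of probes. These are matches within 60 bases and say nothing about the rest of each mRNA.

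Of the 10 members, 5 were higher in the CPEB2 IgG precipitates than in the control precipitates (Npas4, Egr2, Fosb, Nr4a1 and Arc) and 2 were lower (Jun and Junb). Fos, Egr1 and Egr3 had higher values with CPEB2 IgG in both experiments, without passing the test. The test was limma on log2 signals scaled to each array's 75th percentile, with the experiment as a block and Benjamini-Hochberg adjustment over 41138 probes, at an adjusted p of 0.05. Over all those probes 12.7% were called higher and 14.8% lower. On the scaled log2 signals, both CPEB2 IgG arrays lay above both control arrays for 8 members and below them for 2, as they did for 26.4% and 39.2% of all tested probes. The median log2 fold change of the 10 members was 1.01, against -0.11 over the brightest probes of 19698 named genes. An exact permutation test of a single probe, 2 arrays against 2 with the pairing ignored, cannot give a two-sided p below 0.333. Under median centring, the all-probe split moved from 5228 higher and 6095 lower to 7500 higher and 5594 lower. Among the members it moved from 5 higher and 2 lower to 6 and 1 once fold changes were centred by probe GC content, to 3 and 2 when the percentile was taken over probes detected on all arrays, and to 7 and 2 under median centring, normexp background correction, the filter on all 4 arrays, an intensity trend and both gene-level fits.

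**Figure D1:**
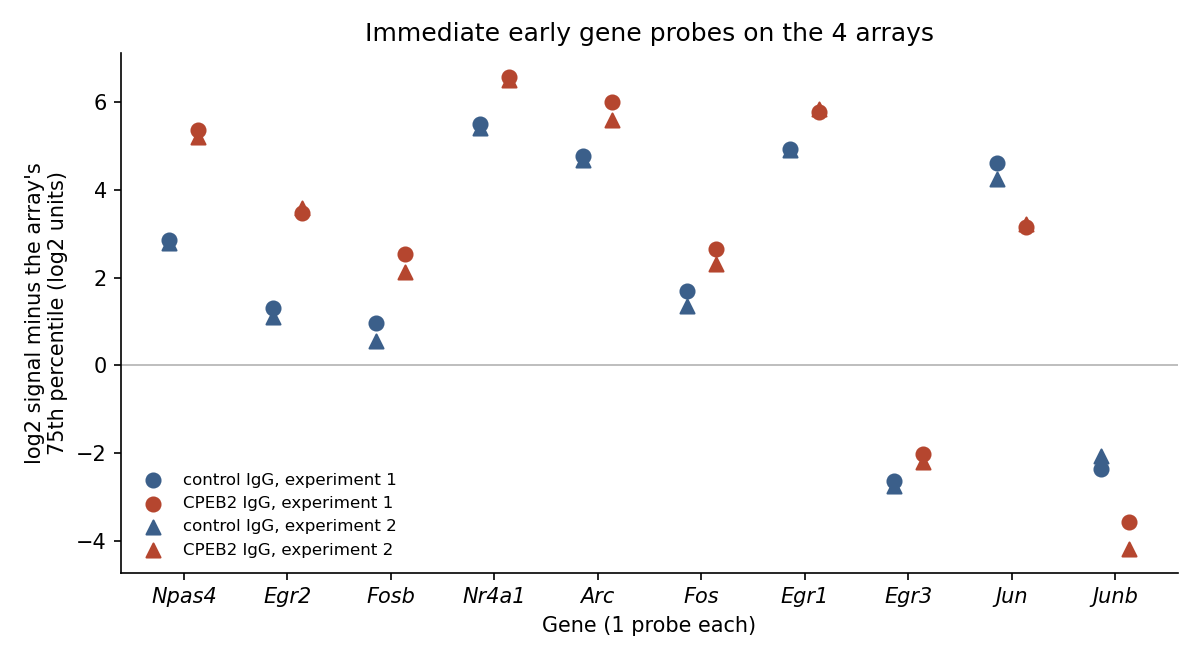
Scaled log2 signal (log2 processed signal minus the array's 75th percentile) of the 1 probe of each immediate early gene, with blue for control IgG, red for CPEB2 IgG, circles for experiment 1 and triangles for experiment 2. Both red points lie above both blue points for 8 genes and below them for Jun and Junb.

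All 10 probes were well above background on all 4 arrays, and none was saturated. Arc, the synaptic effector of the set, gave processed signals of 26668 and 20145 on the CPEB2 IgG arrays and 12159 and 10825 on the control arrays (experiment 1 first, here and below). Both CPEB2 IgG arrays were therefore above both control arrays. Its log2 fold change was 1.07 ± 0.28 (SE, n = 2 experiments), or 2.10-fold, with a limma adjusted p of 0.0441. Every SE here and below is the moderated SE of the limma fit. It draws on the variance of all tested probes and is not the spread of the 2 experiments alone. Experiment 1 gave 1.22 and experiment 2 gave 0.92 on that scale. The probe lies at chr15:74499592-74499651 (mm9, minus strand).

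The Fos branch of AP-1 was represented by Fos and Fosb, whose proteins need a Jun partner to bind DNA well. Fosb gave 2432 and 1825 on the CPEB2 IgG arrays and 859 and 627 on the control arrays. The lower CPEB2 IgG array was well above the higher control array, and the log2 fold change was 1.57 ± 0.28 (SE, n = 2; limma adjusted p = 0.0147). The experiments gave 1.58 and 1.56. Fos, the most used marker of recently active neurons, gave 2632 and 2066 on the CPEB2 IgG arrays against 1429 and 1081 on the control arrays. These groups did not overlap either, and the experiments gave near-identical log2 fold changes of 0.97 and 0.96. The mean was 0.96 ± 0.28 (moderated SE, n = 2), while the SD of the 2 experiments was 0.005. The limma adjusted p was 0.0544, just outside the threshold, with a 95% interval of 0.27 to 1.66. Fos (chr12:86817900-86817959 in mm9, plus strand) was the only member printed in 10 copies per array, and its spots varied by 3.16 to 4.85% (CV) within an array. The highest control spot read 1525 and the lowest CPEB2 IgG spot read 1903.

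Of the Jun branch, Jun and Junb went the other way. Jun, the main AP-1 partner of Fos proteins, gave 3724 and 3904 on the CPEB2 IgG arrays and 10840 and 8092 on the control arrays. Junb, a Jun protein that also dampens Jun activity at some promoters, gave 35.3 and 23.0 on the CPEB2 IgG arrays and 86.5 and 101 on the control arrays. For both genes the 2 CPEB2 IgG arrays lay below the 2 control arrays. Jun was 2.37-fold lower (log2 fold change -1.24 ± 0.29, SE, n = 2; limma adjusted p = 0.0314) and Junb was 3.16-fold lower (-1.66 ± 0.34; limma adjusted p = 0.0213). The experiments differed most for these genes, with -1.46 and -1.03 for Jun and -1.21 and -2.12 for Junb. Junb was, with Egr3, 1 of the 2 dim members, and no signal of either was above 104.

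The Egr family, zinc-finger factors that read a shared GC-rich site, spanned from a 5.03-fold rise to no call. Egr2, known outside the cortex for hindbrain patterning and myelination, gave 4616 and 5036 on the CPEB2 IgG arrays and 1090 and 907 on the control arrays. Its log2 fold change was 2.33 ± 0.29 (SE, n = 2), with a limma adjusted p of 0.00754. Egr1 (Zif268), the family member most tied to memory consolidation, gave 23068 and 24166 on the CPEB2 IgG arrays against 13563 and 12875 on the control arrays. The groups were apart, and the experiments gave 0.85 and 0.93, a mean of 0.89 ± 0.28 (SE, n = 2), with a limma adjusted p of 0.0672 that fell to 0.0387 when the pairing of the arrays was left out of the fit. Egr3 (chr14:70479222-70479281 in mm9, plus strand), which is induced after Egr1 and helps to sustain Arc, was dim, at 104 and 90.3 on the CPEB2 IgG arrays and 71.0 and 63.0 on the control arrays. Its arrays did not overlap, and the log2 fold change was 0.59 ± 0.28 (SE, n = 2; limma adjusted p = 0.175), with a 95% interval of -0.11 to 1.28.

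Nr4a1 and Npas4, the remaining transcription factors, were both higher with CPEB2 IgG. Npas4, which directs activity-dependent inhibitory synapse formation, gave 17332 and 15468 on the CPEB2 IgG arrays and 3232 and 2960 on the control arrays. No control array came near a CPEB2 IgG array, and the fold was the highest of the 10, at 5.49 (log2 fold change 2.46 ± 0.28, SE, n = 2; limma adjusted p = 0.00703). Of all tested probes, 97.8% had a lower fold change. Nr4a1 (Nur77; chr15:101105071-101105130 in mm9, plus strand) gave 40099 and 38280 on the CPEB2 IgG arrays and 20241 and 18044 on the control arrays. The arrays were apart here too, and the log2 fold change was 1.09 ± 0.28 (SE, n = 2; limma adjusted p = 0.0392), with 1.07 and 1.11 in the experiments.

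**Figure D2:**
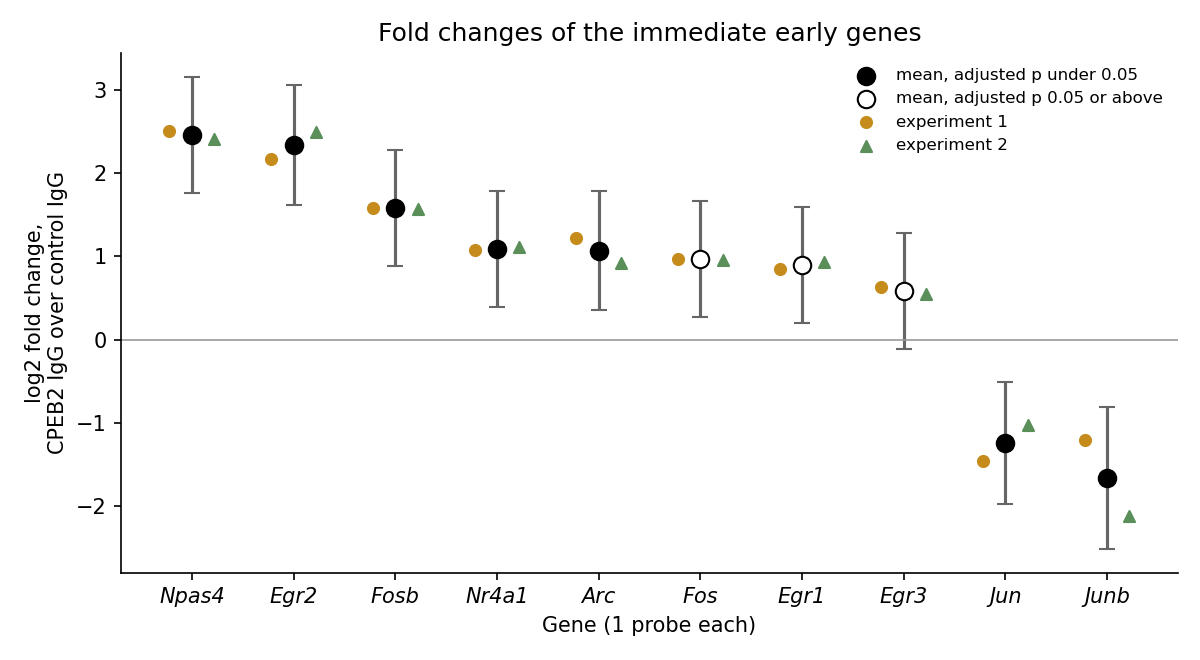
Log2 fold change (CPEB2 IgG over control IgG) of each immediate early gene, as the mean of 2 experiments with the 95% interval of the limma fit (large points, filled where the adjusted p is under 0.05), beside each experiment's own value (small points). The means run from 2.46 for Npas4 to -1.66 for Junb, and only the interval of Egr3 crosses 0.

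Set in order of fold change, the genes ran Npas4, Egr2, Fosb, Nr4a1, Arc, Fos, Egr1, Egr3, Jun, Junb. Some neighbours could not be separated even by order. Npas4 and Egr2, Nr4a1 and Arc, Arc and Fos, and Jun and Junb each changed places between the experiments. The step from Egr2 to Fosb was 0.76 on the log2 scale, and the step from Fosb to Nr4a1 was 0.49. Both kept their order in both experiments and exceeded the summed SDs of the 2 genes, but each SD rests on only 2 values. The intervals of the limma fit overlapped, at 1.61 to 3.05 for Egr2, 0.88 to 2.27 for Fosb and 0.39 to 1.78 for Nr4a1. Whether these neighbours differ was not tested, so neither step is taken as resolved. Fos and Egr1 differed by 0.07, about the size of their summed SDs of 0.06. The gap between Egr3 and Jun was 1.83, with summed SDs of 0.37. The widest gap in the set lay between the 8 genes with higher values and the 2 Jun genes. These fold changes were not centred by probe GC content, and part of the order depended on that. Once they were centred, Egr2 (1.903) and Fosb (1.888) were nearly level, and Egr3 (1.1) stood above Fos (0.53) and Egr1 (0.46). Fosb still stood above Nr4a1 (1.40), and Jun and Junb stayed lowest.

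The study called a transcript enriched where its fold exceeded 1.5 and its raw signal exceeded 1000, before a further requirement for a CPE that was not applied here. With the mean fold of both experiments and at least 1 CPEB2 IgG array above the signal limit, 7 of the 10 members passed (Npas4, Egr2, Fosb, Nr4a1, Arc, Fos and Egr1), against 13.9% of the 24185 named genes. That share is over all named genes, of which 19698 had a tested probe, and a dim gene cannot pass whatever its fold. All 10 members were tested, so the 2 shares also differ by signal level. The 3 that did not pass were Jun, Junb and Egr3, the last with a top signal of 104 and a mean fold at the limit. With a fold limit of 2, Fos and Egr1 also dropped out and 5 members passed.

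Fold changes on these arrays moved with the base composition of the probe. Across all tested probes the median log2 fold change was 0.37 for probes with 9 to 21 G or C bases of 60 and -0.50 for those with 31 to 33. The probes of Egr2, Fos and Egr1 each had 21 such bases, and the probes of Jun, Junb and Egr3 had 31, 33 and 33. Relative to the median of its own GC bin, Jun stood at -0.73 (limma adjusted p = 0.139 in the GC-centred fit), so its call was lost there, while Junb stood at -1.15 and kept its call. Egr3, with the same base composition as Junb, stood 1.1 above its bin and passed the threshold in that fit (limma adjusted p = 0.0303). In the low-GC bin Fos stood at 0.53 and Egr1 at 0.46, and 67.3% and 65.3% of the probes of that bin had lower fold changes. Npas4, Egr2, Fosb, Nr4a1 and Arc stood 1.40 to 2.70 above their bins, and 92.2 to 99.0% of the probes in their bins had lower fold changes. The part that base composition plays in the fold changes of individual genes was not tested.

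**Figure D3:**
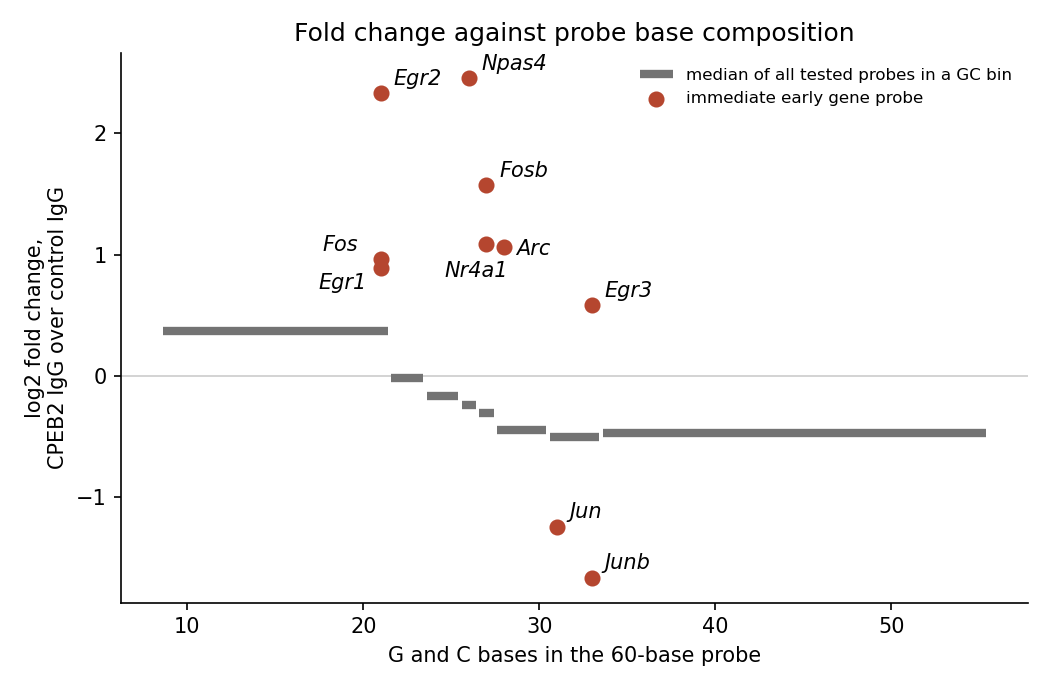
Log2 fold change (CPEB2 IgG over control IgG) of each immediate early gene probe (red points) against the number of G and C bases in its 60 bases, with grey bars for the median of all tested probes in each of 8 GC bins. The bars fall from 0.37 to about -0.5, 8 members lie above the bar of their bin, and Jun and Junb lie below it.

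Related genes were read at their brightest probe, where 17.9% of 19698 named genes were called higher and 16.3% lower by the same limma fit. Among relatives of the AP-1, Egr and Nr4a families, 4 of 8 tested were higher and none was lower, with a median log2 fold change of 0.92 that fell to 0.49, with 3 higher, in the GC-centred fit. They were Batf (3.13), Jdp2 (1.95), Jund (1.34) and Fosl2 (1.28), all basic leucine zipper proteins that can enter AP-1. Batf was dim, at 185 and 142 on the CPEB2 IgG arrays and 18.4 and 21.3 on the control arrays, whereas Jdp2, an AP-1 repressor, gave 7106 and 9726 against 2068 and 2414. Jund, the third Jun gene, gave 70081 and 61203 on the CPEB2 IgG arrays against 28108 and 25770 on the control arrays, so the 3 Jun genes did not share a direction. Fosl2 had a further probe with a log2 fold change of -2.49, past the threshold in the other direction, so its call depended on the probe. Egr4 (0.56), Nr4a2 (-0.21), Nr4a3 (-0.32) and Fosl1 (-0.54) had no call. Atf3 was not tested, since its probe was well above background on too few arrays.

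Of 39 other activity-induced genes tested, 20 were higher and 2 were lower, with a median log2 fold change of 1.24. Csrnp1, a nuclear factor, led with 3.33 ± 0.30 (SE, n = 2), followed by Ptgs2 (cyclooxygenase 2) with 3.28 ± 0.28 and Vgf, a neuropeptide precursor, with 2.86 ± 0.29. Csrnp1 gave 14854 and 11774 on the CPEB2 IgG arrays against 1326 and 1401 on the control arrays. Ptgs2 gave 2275 and 2871 against 276 and 272. Bdnf, the neurotrophin induced by activity, gave 2177 and 2146 on the CPEB2 IgG arrays and 514 and 481 on the control arrays, a log2 fold change of 2.17 ± 0.28 (SE, n = 2; limma adjusted p = 0.00795). Homer1, a synaptic scaffold with a short activity-induced isoform, was higher by 2.05 ± 0.29 at its brightest probe. Its other 4 tested probes ranged from -0.24 to 0.66 and none was called, and which isoform each probe reads was not analysed here. The 2 lower genes were Gadd45g (-2.02), a stress-induced growth-arrest gene, and Ier2. Ier2 gave 17.7 and 10.8 on the CPEB2 IgG arrays and 53.5 and 51.0 on the control arrays, and only 1 of the CPEB2 IgG arrays was well above background, so it entered the test through the control arrays. The spot of Cyr61 was marked on 1 control array and left out of the fit.

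Upstream regulators, the kinases and factors that switch these genes on, had 14 of 31 higher and 4 lower, with a median of 0.99. The genes furthest from 0 among those called were Atf1 (3.66 ± 0.32), a CREB relative, Elk3 (3.12 ± 0.28), a ternary complex factor that works with Srf, and Rps6ka5 (2.66 ± 0.29; SE, n = 2), the kinase MSK1. All 3 tested probes of Atf1 and all 3 of Elk3 were called higher. Map2k2 (-1.94), Mef2c (-1.73), Camk2b (-1.29) and Mapk3 (-1.18) were the lower ones. Among partners and co-repressors of the members, 6 of 14 were higher and none was lower, with a median of 0.98. Arnt, a partner of PAS proteins such as Npas4, stood at 3.22 ± 0.28 at its brightest probe, and its 2 dimmer probes were not called. Mafk (1.92 ± 0.28) and Maf (1.49 ± 0.29), basic leucine zipper proteins, came next, while the Egr co-repressor Nab2 had 1 probe called higher (1.33) and 1 called lower (-1.08). In the GC-centred fit the median was 0.61 and 3 of the 14 were called higher.

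Proteins that bind AU-rich or Pumilio elements, which set the stability or translation of short-lived mRNAs, had 11 of 13 genes higher and none lower, with a median of 1.63. Zfp36l1 (2.75 ± 0.28), which promotes mRNA decay, gave 8011 and 8366 on the CPEB2 IgG arrays against 1381 and 1148 on the control arrays. Hnrnpd (2.42 ± 0.28; AUF1) gave 28401 and 28524 against 5858 and 5209. Zfp36, counted among the 11, was dim and uneven, at 71.8 and 384 on the CPEB2 IgG arrays and 8.22 and 20.5 on the control arrays, and 1 control array was not well above background, so it entered the test through the CPEB2 IgG arrays. Khsrp (-0.91) had lower values with CPEB2 IgG without a call, and in the GC-centred fit it was called lower.

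**Figure D4:**
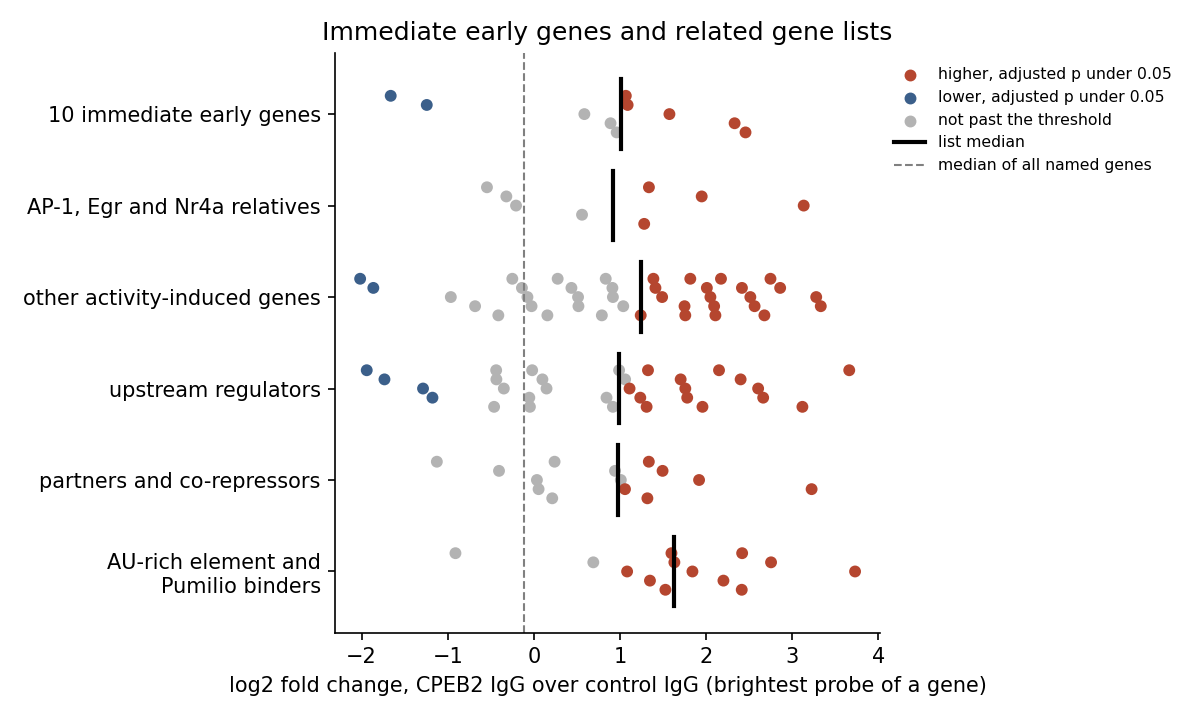
Log2 fold change (CPEB2 IgG over control IgG) at the brightest probe of each gene, by list, with red for genes called higher, blue for genes called lower, grey for no call, a black bar for the list median and a dashed line for the median of all named genes. The list medians lie between 0.92 and 1.63, and the line for all named genes lies at -0.11, while in the GC-centred fit the medians run from 0.49 to 1.51 and that of all named genes is 0.02.

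The defining markers of neurons were present on all arrays. At the brightest probe no gene of the neuron list was lower, with a median log2 fold change of 0.05, or -0.33 in the GC-centred fit. The 2 dimmer probes of Rbfox3 were called lower (-1.47 and -1.65). Astrocyte markers had 1 of 7 higher (Slc1a3, 3.44) and 3 lower (Aldh1l1, -3.77; Aldoc, -2.91; S100b, -1.05), and their summed scaled signal was 166 and 139 on the CPEB2 IgG arrays and 590 and 493 on the control arrays. Aldoc was by far the largest term on the control arrays, with signals of 225494 and 183759, where no other marker of the list exceeded 16884. Microglia markers had 1 of 8 higher (P2ry12, 2.30) and 4 lower (Aif1, C1qa, Csf1r and C1qb, from -2.64 to -1.35), with sums of 41.3 and 38.4 against 38.7 and 63.6. The uneven control sums went with Itgam, which gave 4078 and 15744 on the control arrays and 9362 and 9187 on the CPEB2 IgG arrays. For oligodendrocytes the count was 0 higher and 1 lower of 7 (Cnp, -1.96), and for endothelial cells 1 higher (Cdh5, 1.57) and 0 lower of 5. Gfap, Mobp and Mbp had no call at their brightest probe. Dimmer probes of Gfap (-1.73 and -1.71), Mobp (-1.20 and -1.13) and Mbp (-1.70) were called lower. Since lysate was split across the 2 antibodies, both precipitates of an experiment started from the same cells. The part of the glial markers in the fold changes of the immediate early genes was not tested.

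By likeness of profile over the 4 arrays, the genes closest to Arc among 19698 were Lmf2, Ilf2 and Itgb8, at distances of 0.05, 0.06 and 0.08 (Euclidean, on scaled log2 signals centred on each gene's mean). Those closest to Fos were Tradd, Rasl10b and Adamts3, at 0.02, 0.05 and 0.06. With 4 arrays, many genes share such a profile, and none of these was another member.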

How the data were processed

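The authors deposited 1 scanner file per array (SurePrint G3 Mouse GE 8x60K), written by Agilent Feature Extraction 10.5.1.1, with 1-colour intensity values per spot. The processed signal was used, which the software had already background-corrected. It was not scaled between arrays. Spots that the software flags for uneven pixels or as outliers among replicate spots were dropped, replicate spots were averaged, and the 75th percentile of each array was subtracted from its log2 values. Of 55681 probes, 66 lacked a value on an array. The 41138 probes well above background on at least 2 of 4 arrays were fitted with limma 3.58.1 in R 4.3.3, with antibody and experiment as terms, which leaves 1 residual degree of freedom, and checked on simulated data. To this limma added 4.44 prior degrees of freedom, estimated from all tested probes, when it moderated each variance. Python 3.11.15 and matplotlib 3.10.9 drew the figures. The number of arrays limits the precision: 68.4 to 74.1% of spots were well above background and no spot was saturated.

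The experiment number pairs the arrays because the methods divide a lysate between the antibodies and the study sets arrays of the same number against each other. Deviations of same-numbered arrays from their group means correlated at 0.21 over the tested probes. Members and lists (AP-1, Egr and Nr4a relatives, other activity-induced genes, upstream regulators, partners and co-repressors, AU-rich and Pumilio binders, and neuron, astrocyte, oligodendrocyte, microglia and endothelial markers) were chosen with earlier results of these data known. Named were all member probes, Bdnf, Homer1, and from each list the 3 genes with the largest absolute log2 fold change among those called with the same sign in both experiments. Other listed genes, among them every gene called lower, the genes of the AP-1, Egr and Nr4a list and those whose probes disagree, were named after their values were seen, and the AATAAA search was added after the probes were seen. Alternatives covered scaling, GC centring in 8 bins (10 before ties), normexp background correction (offset 50), marked spots, the filter, the block, an intensity trend, gene-level fits, the limits on fold and signal, and each experiment left out. One result of the neuron marker list is not reported here.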

Additional observations from a re-analysis of the deposited data

How the results depend on the processing

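Every member kept its direction under all 14 refits and in each experiment alone. With both experiments, 5 members were higher and 2 lower. The percentile over probes detected on all arrays gave 3 higher. Scaling to spike-in probes gave 3 higher and 1 lower, with 3825 probes lower in all. Centring within GC bins gave 1 lower. Without a filter on dim probes limma called 0 members higher, 0 lower, and 0 of all 55615 probes in either direction, although 7 members were higher and 2 lower at an unadjusted p under 0.05, as were 7020 and 9073 of all probes. Its smallest limma adjusted p was 0.0961. Prior degrees of freedom were 1.48 in that fit and 4.44 in the main fit, and the cause was not tested. Without the replicate block, 6 members were higher and 2 lower, the change being Egr1 and no other member, and all probes came to 5432 higher and 5928 lower. Over the 14 refits the adjusted p ranged from 0.00103 to 0.18 for Fos, 0.000918 to 0.23 for Egr1, 2.45e-05 to 0.139 for Jun, 0.000128 to 0.118 for Arc, 8.91e-05 to 0.106 for Nr4a1 and 0.0303 to 0.441 for Egr3. Fos passed in 6 of them, Egr1 in 8, Arc, Jun and Nr4a1 in 11, Egr3 in 1, and Npas4, Egr2, Fosb and Junb in 13. The log2 fold change of Junb ran from -1.77 to -0.71 (normexp) and that of Egr3 from 0.22 (normexp) to 1.1 (GC bins). Scaling moved the median of all probes by 0.16 (quantile), 0.23 (median centring), -0.11 (detected probes), 0.13 (normexp) and 0.19 (GC bins). The members' median was 1.21 to 1.25 under quantile normalization, median centring and GC centring. With each experiment left out, 7 members passed the limits on fold and signal, among 3001 to 3585 named genes. The dim signals of Junb and Egr3 and the single probe per gene limit what can be read from them.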
